A study of Mus musculus with 9 samples.

Results

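The transcripts of 10 genes of glucose uptake and glycolysis were followed in mouse monocytes that had been kept with platelets. The genes are Slc2a1, Hk1, Hk2, Pfkl, Pfkp, Pfkfb3, Aldoa, Pgk1, Pkm and Ldha, taken by symbol from the 55367 symbols of the count files. All 10 had enough counts to be tested and are among the 13707 genes that did. Glycolysis splits glucose into pyruvate in the cytosol and yields ATP without oxygen, and lactate dehydrogenase then turns pyruvate into lactate. Monocytes and macrophages are known to use it heavily when activated. Its genes are classical targets of the hypoxia-inducible factor HIF-1.

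In the first of 3 groups, monocytes of adult mice were kept for 4 h with P7 platelets. The label P7 commonly denotes the seventh day after birth. The second group was kept with platelets of adult mice and the third, the control, with buffer alone. All monocytes were washed before mRNA was taken, and each group holds 3 libraries, 9 in all. Strain, sex, genotype, the way in which monocytes and platelets were isolated, and any pooling of animals are not given in the labels. Nor is it stated whether the 3 replicates came from separate cultures or animals, so the spread behind each p-value is that among these samples and may be technical.

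Levels are normalised CPM, read counts scaled to a common library size with TMM factors, as means ± SD over n = 3 libraries. Log2 fold changes are given ± SE from edgeR's quasi-likelihood test, with p adjusted by Benjamini-Hochberg over the 13707 genes, and a gene was called at an adjusted p below 0.05. Total counts ranged from 29687341 to 37065564 per library. All 11 monocyte markers checked, Csf1r and Lyz2 among them, were detected in each group and held 2.50 to 3.14% of counts per library. Single markers differed between groups. With P7 platelets against control 8 were called higher and 1 lower, where 29.9% of all genes tested were called higher and 29.3% lower. Csf1r averaged 3389 CPM with P7 platelets and 2038 CPM in control, and Ccr2 1747 and 2379 CPM. Erythroid markers held 4.37 to 5.52% of counts in P7 platelet libraries, 0.0507 to 0.181% in adult platelet libraries and 0.00125 to 0.00158% in control libraries, and none of the 12 was at 0 in any group. The 13 platelet markers held 0.131 to 0.153%, 0.0789 to 0.146% and 0.00075 to 0.0015% in the same order of groups, with Gp1bb and Gp6 at 0 in control. Neutrophil, B and plasma cell, and T and NK cell markers held at most 0.0260, 0.115 and 0.00044% in any library. The immunoglobulin transcript Igkc stood, relative to unscaled library totals, at 410 to 772 CPM in 1 P7, 2 adult platelet and 1 control library and at 123 to 172 CPM in the other 5. In bulk RNA, fewer cells of a type and less RNA per cell cannot be told apart.

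The promoters of 3 genes are shown. Slc2a1 and Ldha had the largest rises of the 10 with P7 platelets over control. Hk2, like Pfkfb3 and Pkm, was not called in any comparison. Each line holds the 250 bases before the RefSeq transcription start in GRCm38.p6, on the gene's strand, and for Ldha the window of the first of 2 start sites. Slc2a1 lies at chr4:119108495-119108744 on the plus strand, Ldha at chr7:46845554-46845803 on the plus strand and Hk2 at chr6:82774455-82774704 on the minus strand. Capitals mark ACGTG, a form of the core of the hypoxia response element to which HIF-1 binds, or its reverse complement CACGT. The other form of that core, GCGTG, is not marked.
Slc2a1: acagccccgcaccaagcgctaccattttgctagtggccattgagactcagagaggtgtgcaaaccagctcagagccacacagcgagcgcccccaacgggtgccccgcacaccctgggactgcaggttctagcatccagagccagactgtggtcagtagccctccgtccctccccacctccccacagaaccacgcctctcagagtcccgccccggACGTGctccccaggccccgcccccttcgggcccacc
Ldha: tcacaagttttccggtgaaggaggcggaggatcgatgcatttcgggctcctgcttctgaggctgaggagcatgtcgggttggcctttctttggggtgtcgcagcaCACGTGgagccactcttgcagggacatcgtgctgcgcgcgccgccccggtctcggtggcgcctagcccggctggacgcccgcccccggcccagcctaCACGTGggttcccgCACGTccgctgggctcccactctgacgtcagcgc
Hk2: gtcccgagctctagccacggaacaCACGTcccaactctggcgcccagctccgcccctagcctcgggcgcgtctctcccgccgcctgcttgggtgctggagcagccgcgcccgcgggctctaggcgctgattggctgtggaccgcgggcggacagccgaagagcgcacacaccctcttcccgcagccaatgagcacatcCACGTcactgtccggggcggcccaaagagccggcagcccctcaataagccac
The Slc2a1 window holds the motif 1 time, 36 bases before the start. The Ldha window holds it 5 times when both strands are counted, 2 pairs of which overlap in the palindrome CACGTG, and the Hk2 window holds it 2 times. The window of the second Ldha start site, which is not shown, holds ACGTG 0 times and GCGTG 1 time. Of the windows shown, that of Slc2a1 holds GCGTG 1 time and those of Ldha and Hk2 hold it 0 times. On either strand, ACGTG occurs in 16.6% of the 32817 mouse promoter windows of that length and CACGTG in 6.02%. Among the 10 genes, 9 of 16 windows hold ACGTG, and Hk1, Pfkl and Pfkp have it in none of theirs. These 3 genes do hold GCGTG, 3 times in the second Hk1 window, 1 time in the Pfkl window and 3 times in the Pfkp window. ACGTG or GCGTG occurs in 38.6% of the mouse windows. Windows 2 and 3 of Aldoa overlap and hold the same site, which is counted in both. With TMM factors and P7 platelets against control, Hk1 was the only member called lower, and Pfkl and Pfkp were called higher. The part of either form of the motif in these changes was not tested.

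P7 platelets against control is the comparison in which most of the 10 genes moved. Of the 10, 6 rose (Slc2a1, Ldha, Pfkl, Pfkp, Pgk1 and Aldoa) and Hk1 fell, while Hk2, Pfkfb3 and Pkm did not pass the test. Among all genes tested, 29.9% were called higher and 29.3% lower in this comparison, 59.2% in all. The members' median log2 fold change was 0.26, against -0.01 over all genes tested. The libraries of both groups did not overlap for 8 members, 7 of them above and 1 below control. Among all genes, 34.5% lay above and 34.7% below control without overlap, 69.1% in all. These counts depend on the scaling. With upper-quartile factors 3 members were called higher, Slc2a1, Ldha and Pfkl, and with unscaled library totals 2 were called higher, Slc2a1 and Ldha, and 2 lower, Hk1 and Hk2. Unscaled totals moved the median of all genes by -0.28 and turned 4097 higher and 4014 lower calls into 2193 and 6846, and upper-quartile factors moved it by -0.10 and gave 3279 and 5012. Relative to the unscaled shift, Aldoa (-0.02), Pgk1 (-0.01) and Pkm (-0.12) lay above the median gene while their own sign turned.

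The glucose carrier had the largest rise. Slc2a1 encodes GLUT1, the carrier that brings glucose into most cells, and lies on chromosome 4 at 119108711 to 119137983 (GRCm38, GENCODE M21). It stood at 107, 118 and 119.8 CPM in P7 platelet libraries, at 63.0, 68.2 and 59.6 CPM in adult platelet libraries and at 38.7, 35.0 and 43.4 CPM in control libraries. The 3 groups formed 3 separate levels with no overlap, highest with P7 platelets and lowest in control. The rise with P7 platelets over control was 2.95-fold (log2 fold change 1.56 ± 0.09, adjusted p = 1.46e-06), and that with adult platelets 1.63-fold (0.71 ± 0.09, adjusted p = 0.000546). P7 platelet libraries were 1.81-fold above adult platelet libraries (0.85 ± 0.09, adjusted p = 0.000141). The call and the direction held in all 3 comparisons under each alternative run, with log2 fold changes of 1.28 to 1.64 for P7 platelets against control.

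**Figure D1:**
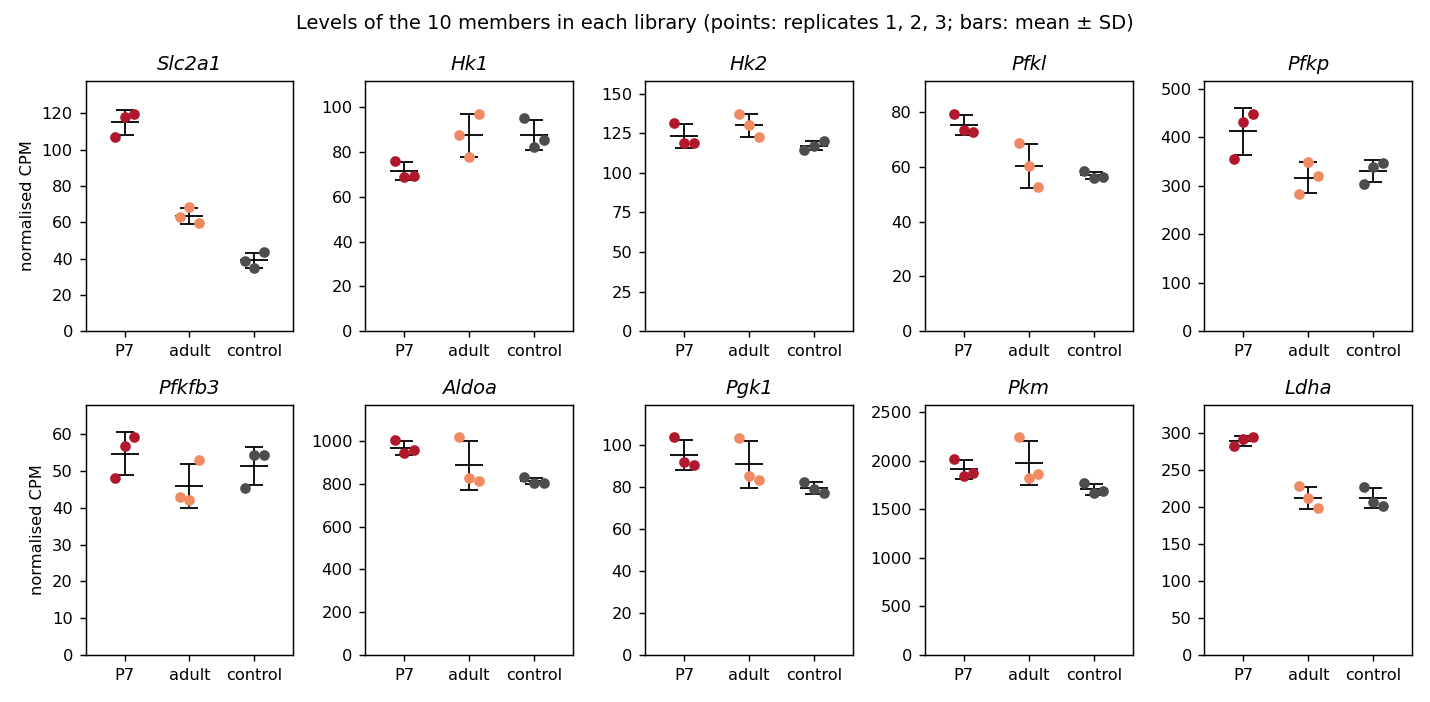
Normalised CPM (y axis, from 0) of each of the 10 genes in P7 platelet, adult platelet and control libraries (x axis, left to right); points are replicates 1 to 3 and bars give mean ± SD. Slc2a1 forms 3 separate levels, with means of 115, 63.6 and 39.0 CPM, while Ldha stands at 289 CPM in the P7 platelet libraries and at 212 CPM in both others.

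GLUT1 is also a protein of red cells in humans and in newborn mice, so the erythroid share of counts is set beside it. That share was highest in the P7 platelet group, where Slc2a1 was highest too. Within the P7 platelet group, the library with the largest erythroid share (5.52%) had the lowest Slc2a1, 107 CPM. That library, replicate 1, is also the P7 library with high Igkc. Within the adult platelet group, the library with 0.181% erythroid counts had 63.0 CPM, between the values of the libraries with 0.0646% (68.2 CPM) and 0.0507% (59.6 CPM). In control, Slc2a1 followed the order of the share, with 38.7, 35.0 and 43.4 CPM at 0.00142, 0.00125 and 0.00158%. The part of erythroid RNA in the rise of Slc2a1 was not tested.

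Bpgm, which makes bisphosphoglycerate in red cells and regulates the oxygen affinity of haemoglobin, was set beside the same share. It stood at 1592, 1172 and 1400.0 CPM in P7 platelet libraries, at 39.6, 16.4 and 12.4 CPM in adult platelet libraries and at 6.90, 7.56 and 5.77 CPM in control libraries. In both platelet groups its order over libraries is that of the erythroid share, and in control it is the reverse order. It rose with P7 platelets (log2 fold change 7.68 ± 0.46, adjusted p = 1.96e-06) and with adult platelets (1.76 ± 0.39, adjusted p = 0.00999) over control. The part of erythroid RNA in the rise of Bpgm was not tested.

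**Figure D2:**
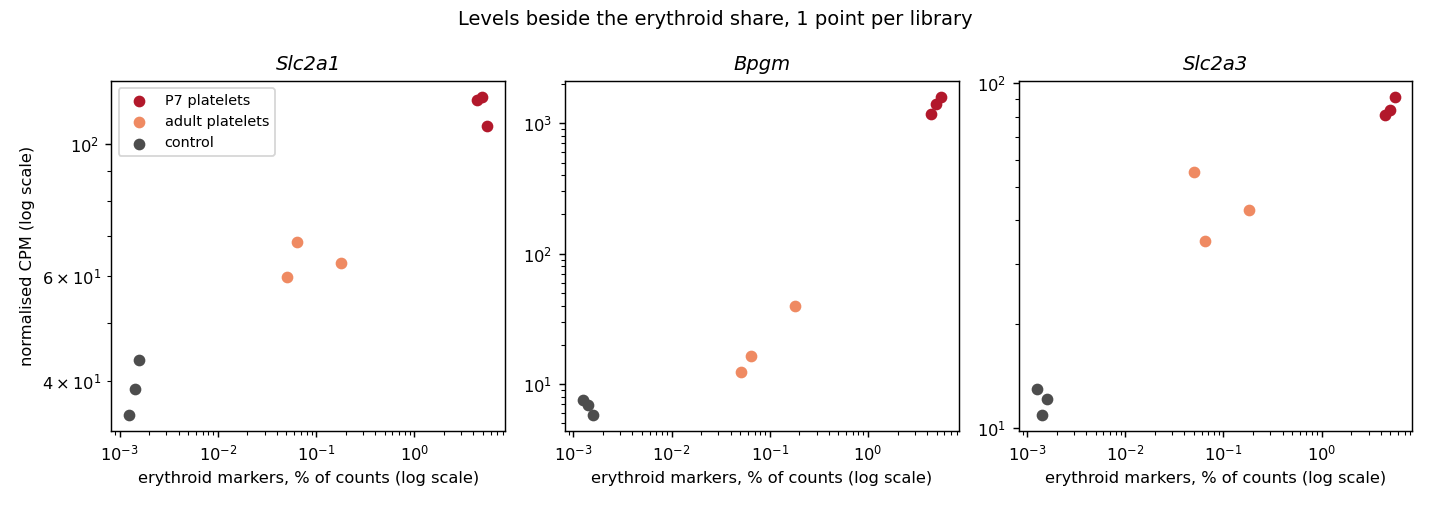
Normalised CPM (y axis, log scale) of Slc2a1, Bpgm and Slc2a3 against the erythroid marker share in percent of counts (x axis, log scale), 1 point per library, coloured by group. Within both platelet groups Bpgm goes up with the share. The P7 platelet library with the largest share, 5.52%, has the lowest Slc2a1 of its group. In control, Slc2a1 goes up with the share and Bpgm goes down.

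Ldha encodes the A subunit of lactate dehydrogenase, which makes lactate from pyruvate, and lies on chromosome 7 at 46841475 to 46855627. Its levels were 282, 291 and 294 CPM in P7 platelet libraries, 227, 211 and 198 CPM in adult platelet libraries and 226, 207 and 201 CPM in control libraries. The P7 platelet libraries lay above all others, and the adult platelet and control libraries lay within each other's range. Ldha rose with P7 platelets over control (log2 fold change 0.45 ± 0.07, adjusted p = 0.000306) and over adult platelets (0.44 ± 0.07, adjusted p = 0.000842). With adult platelets it did not pass the test against control (0.00, 95% interval -0.14 to 0.15, adjusted p = 0.972). Both Ldha calls held under each alternative run, the nearest to the threshold being P7 platelets against control with unscaled totals (0.17, adjusted p = 0.0489).

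Hexokinases trap glucose in the cell by phosphorylation. Hk1, the widely expressed form, stood at 76.0, 68.7 and 69.4 CPM in P7 platelet libraries, 87.6, 77.9 and 97.1 CPM in adult platelet libraries and 95.2, 82.2 and 85.2 CPM in control libraries. All P7 platelet libraries were below all others. Hk1 fell with P7 platelets relative to control (log2 fold change -0.29 ± 0.09, adjusted p = 0.0166) and relative to adult platelets (-0.29 ± 0.09, adjusted p = 0.0255). Leaving out 1 library ended the first call in 3 cases, P7 replicate 2, P7 replicate 3 and control replicate 1 (adjusted p = 0.0608, 0.0574 and 0.0615). It ended the second in 4, P7 replicates 2 and 3 (0.0899 and 0.0861) and adult platelet replicates 1 and 3 (0.0540 and 0.0868).

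Hk2, the form that is induced in many proliferating and activated cells, lies on chromosome 6 at 82725025 to 82774454. It stood at 132, 119 and 119 CPM in P7 platelet libraries, 137, 130.2 and 123 CPM in adult platelet libraries and 114, 117 and 120.0 CPM in control libraries. The adult platelet libraries lay above control without overlap but missed the threshold (log2 fold change 0.15 ± 0.06, adjusted p = 0.0923). For P7 platelets against control the difference was 0.07 (95% interval -0.06 to 0.21, adjusted p = 0.331). Within each library, the ratio of Hk2 to Hk1 in counts per kilobase of exon does not depend on the scaling. It was 2.48, 2.47 and 2.45 in P7 platelet libraries, 2.24, 2.39 and 1.81 in adult platelet libraries and 1.72, 2.04 and 2.01 in control libraries, so each P7 platelet library was above all others.

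Hk3, a hexokinase of myeloid cells, was not among the 10 but belongs to the same step. Hk3 averaged 28.1 ± 2.31 CPM with P7 platelets, 40.2 ± 3.21 CPM with adult platelets and 41.6 ± 0.717 CPM in control. It fell with P7 platelets relative to control (log2 fold change -0.57 ± 0.07, adjusted p = 0.000153).

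Phosphofructokinase commits the sugar to glycolysis. Pfkl, its liver-type subunit, stood at 79.5, 73.4 and 72.9 CPM in P7 platelet libraries, 68.7, 60.2 and 52.6 CPM in adult platelet libraries and 58.5, 56.0 and 56.5 CPM in control libraries. The P7 platelet libraries were above all others, and adult platelet and control libraries overlapped. Pfkl rose with P7 platelets over control (log2 fold change 0.40 ± 0.09, adjusted p = 0.00314) and over adult platelets (0.32 ± 0.09, adjusted p = 0.0177). The second call was lost without P7 replicate 1 (adjusted p = 0.0529) and with unscaled totals (0.10, adjusted p = 0.347). The first was lost with unscaled totals (0.12, adjusted p = 0.238).

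Pfkp, the platelet-type subunit, is made in many cells besides platelets. It stood at 356, 431 and 448 CPM in P7 platelet libraries, 283, 348 and 319 CPM in adult platelet libraries and 304, 338 and 348 CPM in control libraries. P7 replicate 1 was the lowest of its group, and it still lay just above all adult platelet and control libraries. Pfkp rose with P7 platelets over control (log2 fold change 0.32 ± 0.10, adjusted p = 0.0242) and over adult platelets (0.38 ± 0.10, adjusted p = 0.0172). The first call was lost without P7 replicate 2 or 3 (adjusted p = 0.0791 and 0.0919) and without control replicate 1 or 2 (0.0838 and 0.0517). It was also lost with upper-quartile factors (0.22, adjusted p = 0.0838) and with unscaled totals (0.04, adjusted p = 0.713). The second was lost without P7 replicate 2 or 3 (0.0647 and 0.0715) or adult platelet replicate 1 (0.0541), and with unscaled totals (0.16, adjusted p = 0.167).

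With adult platelets against control Pfkp was not called (-0.06, 95% interval -0.29 to 0.17, adjusted p = 0.710). Platelet markers lay above control in both platelet groups, and the part of platelet RNA in the level of Pfkp was not tested. The ratio of Pfkp to Pfkl per kilobase of exon averaged 2.74 ± 0.446 with P7 platelets, 2.65 ± 0.523 with adult platelets and 2.89 ± 0.257 in control, and its ranges overlapped in all pairs of groups. The muscle-type subunit, Pfkm, was scarce, at 2.25 ± 0.513, 2.34 ± 0.162 and 3.77 ± 0.713 CPM in P7 platelet, adult platelet and control libraries. It fell with P7 platelets (-0.74 ± 0.20, adjusted p = 0.00977) and with adult platelets (-0.69 ± 0.20, adjusted p = 0.0304) relative to control.

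Pfkfb3 turns the substrate of phosphofructokinase into a second fructose bisphosphate, which activates that enzyme. It stood at 48.1, 56.8 and 59.1 CPM in P7 platelet libraries, 42.8, 42.2 and 52.9 CPM in adult platelet libraries and 45.3, 54.3 and 54.3 CPM in control libraries. The 3 groups overlapped. It was not called for P7 platelets against control (log2 fold change 0.09, 95% interval -0.16 to 0.35, adjusted p = 0.516) or against adult platelets (0.25, -0.01 to 0.51, adjusted p = 0.115). Adult platelets against control was not called either (-0.16, 95% interval -0.41 to 0.10, adjusted p = 0.342). P7 against adult platelets passed without P7 replicate 1 or adult platelet replicate 3 (adjusted p = 0.0485 and 0.0331), and with a replicate block. In the libraries of low Igkc, with 1 adult platelet library, the log2 ratio of means was 0.46 for P7 over adult platelets and -0.36 for adult platelets over control. In those of high Igkc it was 0.01 and 0.08.

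Tigar, a phosphatase that removes the product of Pfkfb3, averaged 10.1 ± 0.169 CPM with P7 platelets, 6.36 ± 0.614 CPM with adult platelets and 6.71 ± 0.361 CPM in control. It rose with P7 platelets over control (0.59 ± 0.09, adjusted p = 0.000342).

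In the middle of the pathway, Aldoa encodes aldolase A, which splits the doubly phosphorylated sugar into triose phosphates. Aldoa, Pgk1, Pkm, Ldha and Gapdh have processed pseudogenes, and how reads with several matches were counted is not given in the sources used here, so their levels are uncertain. Aldoa stood at 1006, 943 and 959.6 CPM in P7 platelet libraries, 1018, 828 and 815 CPM in adult platelet libraries and 832, 804 and 805 CPM in control libraries. The P7 platelet libraries lay above control, and adult platelet replicate 1 stood far above its own group. Aldoa rose with P7 platelets over control (log2 fold change 0.25 ± 0.08, adjusted p = 0.0254) and was not called for P7 against adult platelets (0.13 ± 0.08, adjusted p = 0.255). The first call was lost without P7 replicate 1 or 3 (adjusted p = 0.0704 and 0.0545) and without control replicate 2 or 3 (0.0751 and 0.0715). It was also lost with upper-quartile factors (0.15, adjusted p = 0.151) and with unscaled totals (-0.02, adjusted p = 0.822). Without adult platelet replicate 1 the second comparison passed (0.24, adjusted p = 0.00694).

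Pgk1 encodes phosphoglycerate kinase, the first ATP-forming enzyme of the pathway. It stood at 104, 91.9 and 90.2 CPM in P7 platelet libraries, 103, 85.3 and 83.1 CPM in adult platelet libraries and 82.5, 78.9 and 76.8 CPM in control libraries. All platelet libraries of both kinds were above all control libraries. Pgk1 rose with P7 platelets over control (log2 fold change 0.26 ± 0.09, adjusted p = 0.0282), while adult platelets against control missed the threshold (0.19 ± 0.09, adjusted p = 0.143). The call was lost without P7 replicate 1 (adjusted p = 0.0968) and without control replicate 2 or 3 (0.0746 and 0.0876). It was also lost with upper-quartile factors (0.16, adjusted p = 0.155) and with unscaled totals (-0.01, adjusted p = 0.904).

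Pkm encodes the muscle-type pyruvate kinase, which makes pyruvate and ATP, and its counts do not separate its splice forms. It stood at 2023, 1840.0 and 1878 CPM in P7 platelet libraries, 2244, 1826 and 1865 CPM in adult platelet libraries and 1775, 1667 and 1690.2 CPM in control libraries. All platelet libraries lay above control, but neither difference passed the test. The log2 fold change was 0.16 ± 0.08 with P7 platelets (adjusted p = 0.119) and 0.21 ± 0.08 with adult platelets (adjusted p = 0.0907). The first passed without adult platelet replicate 1 (adjusted p = 0.0259), with only the groups compared in the fit (0.0260) and with the 5 libraries of low Igkc (0.000963). The second passed without adult platelet replicate 2 (0.0485) and with the 5 libraries of low Igkc (0.0182).

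**Figure D3:**
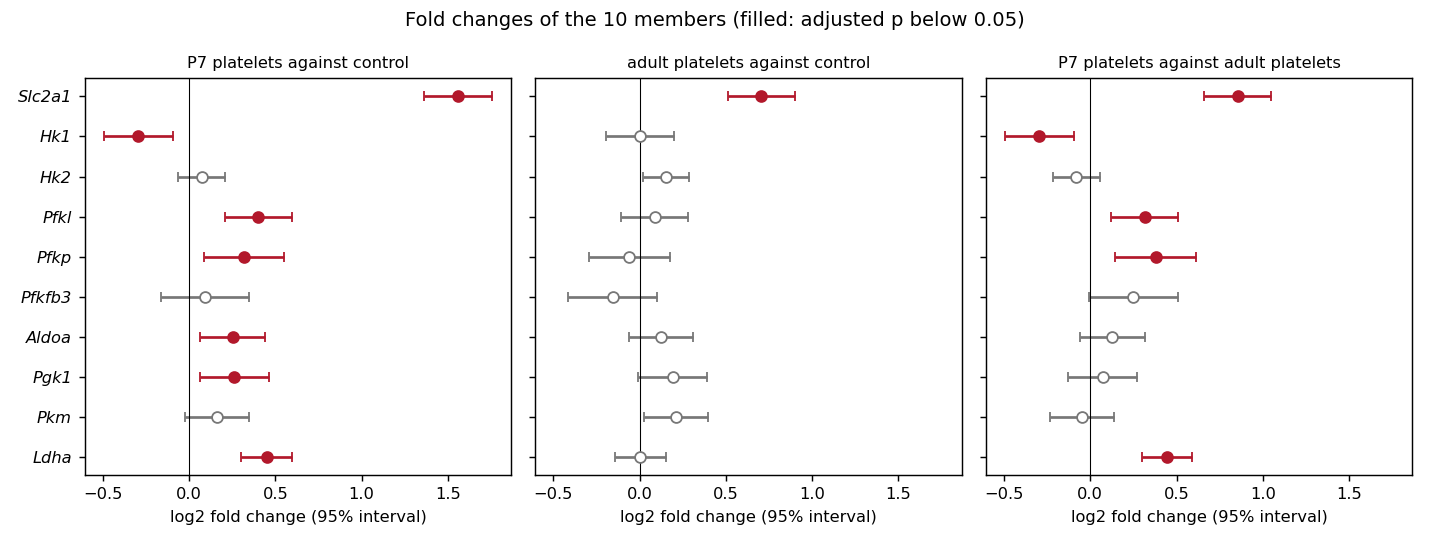
Log2 fold changes (x axis) of the 10 genes (rows) in the 3 comparisons (panels), with 95% intervals; filled points have an adjusted p below 0.05. Slc2a1 is called in all 3 panels, and it is the only member called with adult platelets against control.

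In all 3 groups, replicate 1 was the highest of its group for 4 members (Pfkl, Aldoa, Pgk1 and Pkm) and the lowest for 1 (Pfkp). Replicate 1 was the library with high Igkc in the P7 and control groups, and adult platelet replicates 1 and 3 were high too. The high-Igkc set thus holds 1 P7, 2 adult platelet and 1 control library and the low-Igkc set 2, 1 and 2, so the log2 ratios of means within a set rest on these numbers and have no test. In the high-Igkc set, P7 platelets over control gave 1.47 for Slc2a1, 0.31 for Ldha, 0.44 for Pfkl and 0.23 for Pfkp. In the low-Igkc set the same ratios were 1.60, 0.52, 0.38 and 0.36. Hk1 was lower with P7 platelets in both sets (-0.32 and -0.28), and Aldoa (0.27 and 0.24) and Pgk1 (0.33 and 0.23) were higher in both. For P7 over adult platelets, Slc2a1 gave 0.80 in both sets, Ldha 0.41 and 0.47, and Pfkfb3 0.01 and 0.46. Adult platelets over control gave 0.67 and 0.80 for Slc2a1 and 0.08 and -0.36 for Pfkfb3.

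Adult platelets against control moved 1 of the 10 genes. Slc2a1 rose, none fell, and 9 did not pass the test, whereas 14.3% of all genes tested were called higher and 12% lower. A count of 1 in 10 is near that background. The members' median log2 fold change was 0.11, against -0.00 over all genes. For 4 members, Slc2a1, Hk2, Pgk1 and Pkm, the adult platelet libraries lay above control without overlap, and none lay below. Among all genes 21.8% lay above and 20.9% below without overlap, 42.7% in all. With unscaled totals all genes gave 1291 higher and 2278 lower calls, against 1966 and 1651 with TMM.

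P7 platelets against adult platelets moved 5 of the 10. Slc2a1, Ldha, Pfkp and Pfkl rose and Hk1 fell, against 19.7% of all genes tested called higher and 19.8% lower. The same 5 members were those whose groups did not overlap, 4 above and 1 below, and among all genes 24.2% lay above and 24.8% below without overlap, 49% in all. The median log2 fold change was 0.19, against -0.02 over all genes. With unscaled totals 2 members were called higher and 3 lower, while calls over all genes went to 1427 higher and 5963 lower, against 2706 and 2718 with TMM (2106 and 3556 with upper-quartile factors). The comparisons with control share the control libraries, and each pair of comparisons shares a group.

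Per kilobase of exon, the order of the levels was nearly the same in the 3 groups. In P7 platelet libraries it ran from Pkm (383 CPM per kilobase) over Aldoa (333), Ldha (87.2), Pgk1 (42.4), Slc2a1 (32.8), Pfkp (30.7), Hk2 (20.6), Pfkl (11.3) and Hk1 (8.36) to Pfkfb3 (7.23). In adult platelet libraries Slc2a1 ranked 7 of 10, at 18.1 CPM per kilobase, below Pfkp (23.6) and Hk2 (21.8). In control libraries it ranked 7 as well, at 11.1, beside Hk1 at 10.3. With P7 platelets it ranked 5. Neighbours whose ranges over libraries overlapped were Slc2a1 and Pfkp with P7 platelets, Pfkp and Hk2 as well as Hk1 and Pfkl with adult platelets, and Slc2a1 and Hk1 in control.

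The summed level of the 10 members was 4118 ± 90.1 CPM with P7 platelets, 3872 ± 349 CPM with adult platelets and 3497 ± 68.1 CPM in control. As a share of unscaled counts it was 0.368% ± 0.0111, 0.401% ± 0.0372 and 0.378% ± 0.0126 in the same groups. P7 platelet libraries were thus above control on the scaled values and not on the unscaled share. The scaled values also divide by the TMM factors, which averaged 0.893 ± 0.0109 with P7 platelets and 1.08 ± 0.0173 in control. What set these factors apart was not tested.

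Among the genes with a pattern near that of Slc2a1 over the 9 libraries were Slc15a3 and Pla2g4a, with root mean square differences of 0.0575 and 0.101 in centred log2 CPM among 8340 candidates. Slc15a3, a peptide carrier of the lysosome, averaged 372 ± 33.9 CPM with P7 platelets, 209 ± 19.0 CPM with adult platelets and 135 ± 17.0 CPM in control. Nearest to Hk2 were Golt1b (0.0289), Mrpl48 (0.0323) and Polr3k (0.0345), and nearest to Pfkfb3 were Fbxo4 (0.0761), Trim36 (0.0879) and Slc1a5 (0.0927).

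Of 26 other glycolysis enzymes and isoforms, 18 were tested. With P7 platelets against control 4 rose and 9 fell, with adult platelets against control 3 rose and 4 fell, and with P7 against adult platelets 3 rose and 4 fell. Of all genes tested, 29.9% were called higher and 29.3% lower in the first comparison, 14.3% and 12% in the second and 19.7% and 19.8% in the third. The list's median log2 fold changes were -0.07, -0.07 and -0.02. Gpi1, phosphoglucose isomerase at the second step, fell to 314 ± 10.2 CPM with P7 platelets and 397 ± 23.5 CPM with adult platelets, against 453 ± 8.18 CPM in control (log2 fold change with P7 platelets -0.53 ± 0.06, adjusted p = 4.06e-05).

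Between aldolase and pyruvate kinase, Tpi1, Gapdh and Pgam1 were not called in any of the 3 comparisons. Gapdh, which oxidises the triose phosphate, averaged 368 ± 29.3 CPM with P7 platelets, 354 ± 45.8 CPM with adult platelets and 316 ± 21.4 CPM in control, with adjusted p of 0.0799 for P7 platelets against control, 0.253 for adult platelets against control and 0.680 for P7 against adult platelets. Eno1, the enolase of most tissues, averaged 228 ± 23.6, 266 ± 33.2 and 208 ± 12.7 CPM in the same groups and rose with adult platelets over control (0.35 ± 0.10, adjusted p = 0.0314). For P7 platelets over control the difference was 0.13 ± 0.10 (adjusted p = 0.294), and P7 against adult platelets was not called (-0.22 ± 0.10, adjusted p = 0.114). Triose phosphate isomerase (Tpi1) had a log2 fold change of 0.06 (adjusted p = 0.704) and phosphoglycerate mutase (Pgam1) one of 0.19 (0.110) for P7 platelets against control.

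**Figure D4:**
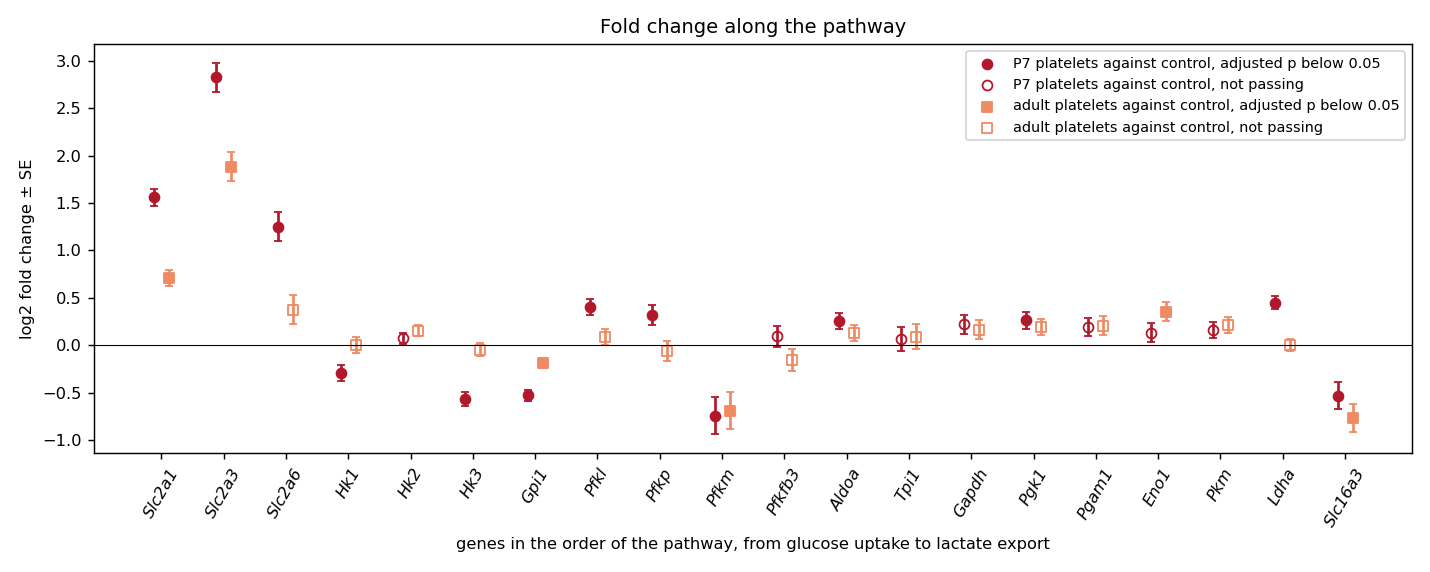
Log2 fold change ± SE (y axis) of glycolysis genes and carriers in the order of the pathway (x axis), for P7 platelets against control (circles) and adult platelets against control (squares); filled symbols have an adjusted p below 0.05. The largest values are at glucose uptake, where Slc2a3 reaches 2.82 and Slc2a1 1.56 with P7 platelets, and Bpgm, at 7.68, is left out of the plot.

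Of 21 other carriers of sugars, lactate and sugar phosphates, 12 were tested. With P7 platelets against control 3 rose and 7 fell (median log2 fold change -0.45), with adult platelets 3 rose and 5 fell (-0.19), and with P7 against adult platelets 3 rose and 5 fell (-0.28). The shares of all genes called higher and lower were 29.9% and 29.3%, 14.3% and 12%, and 19.7% and 19.8% in these comparisons. Slc2a3 encodes GLUT3, the high-affinity glucose carrier of neurons and platelets. It stood at 91.2, 80.8 and 83.5 CPM in P7 platelet libraries, 42.8, 34.8 and 55.1 CPM in adult platelet libraries and 10.9, 13.0 and 12.1 CPM in control libraries. The 3 groups did not overlap. Slc2a3 rose with P7 platelets (log2 fold change 2.82 ± 0.16, adjusted p = 1.36e-06) and with adult platelets (1.88 ± 0.15, adjusted p = 5.47e-05) over control. The platelet marker share also lay apart from control in both groups, and its part in the rise of Slc2a3 was not tested.

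Slc2a6, a hexose carrier of lysosomal membranes, averaged 394 ± 28.9, 215 ± 50.1 and 166 ± 14.6 CPM in P7 platelet, adult platelet and control libraries. It rose with P7 platelets over control (1.25 ± 0.15, adjusted p = 0.000103). Slc16a3, which exports lactate, averaged 459 ± 64.2, 390.3 ± 13.7 and 664 ± 131 CPM in these groups. It fell with P7 platelets (-0.53 ± 0.15, adjusted p = 0.0109) and with adult platelets (-0.77 ± 0.15, adjusted p = 0.00536), whereas Ldha, which makes the lactate, rose with P7 platelets. Bsg, the chaperone of lactate carriers, averaged 175 ± 3.16, 146 ± 9.48 and 126 ± 2.86 CPM and rose with P7 platelets (0.48 ± 0.05, adjusted p = 6.14e-05). The sugar phosphate carriers Slc37a3 (-0.97, adjusted p = 7.72e-06) and Slc37a4 (-0.59, adjusted p = 9.72e-05) also fell with P7 platelets.

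Of 21 genes of glycogen metabolism and gluconeogenesis, 16 were tested. With P7 platelets against control 2 rose, 10 fell and 4 were not called (median log2 fold change -0.36), where 29.9% of all genes were called higher and 29.3% lower. With adult platelets against control 1 rose, 6 fell and 9 were not called (median -0.10), where 14.3% of all genes were called higher and 12% lower. With P7 against adult platelets 1 rose, 6 fell and 9 were not called (median -0.15), beside 19.7% higher and 19.8% lower. Gyg, the protein that primes glycogen synthesis, stood at 31.8 ± 1.16 CPM with P7 platelets, 58.5 ± 2.73 CPM with adult platelets and 74.7 ± 4.51 CPM in control (-1.23 ± 0.06, adjusted p = 8.53e-07). Pygl, the liver form of glycogen phosphorylase, stood at 112 ± 2.16, 153 ± 4.17 and 213 ± 10.7 CPM (-0.92 ± 0.05, adjusted p = 1.36e-06). The phosphorylase kinase subunits Phka1 and Phka2 fell as well (-0.76 and -0.57).

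Beyond pyruvate, 13 of 14 genes of its entry into mitochondria were tested. With P7 platelets against control 4 rose and 5 fell (median 0.08), with adult platelets 1 rose and 4 fell, and with P7 against adult platelets 6 rose and 1 fell. Over all genes, 29.9% and 29.3%, 14.3% and 12%, and 19.7% and 19.8% were called higher and lower in these comparisons. Pdk2, a kinase that shuts pyruvate dehydrogenase, fell to 2.08 ± 0.107 CPM with P7 platelets and 3.55 ± 0.443 CPM with adult platelets, against 8.16 ± 0.266 CPM in control (log2 fold change with P7 platelets -1.97 ± 0.12, adjusted p = 2.02e-06). Dld, the shared dehydrogenase subunit, rose (0.44 ± 0.05, adjusted p = 4.24e-05), Pdhb rose (0.26 ± 0.04, adjusted p = 0.000481) and Pdk3 fell (-0.42 ± 0.06, adjusted p = 0.00018).

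All 22 genes of the tricarboxylic acid cycle list were tested, and with P7 platelets against control 10 rose and 6 fell (median -0.03), where 29.9% of all genes were called higher and 29.3% lower. With adult platelets against control 3 rose, 1 fell and 18 were not called (median 0.02), beside 14.3% higher and 12% lower over all genes. With P7 against adult platelets 4 rose, 5 fell and 13 were not called (median -0.01), near the 19.7% and 19.8% of all genes. The list counts Acod1, which diverts an intermediate of the cycle into itaconate in activated macrophages. Acod1 averaged 631 ± 86.9 CPM with P7 platelets, 73.1 ± 19.1 CPM with adult platelets and 39.5 ± 13.2 CPM in control. It rose with P7 platelets over control (4.00 ± 0.28, adjusted p = 4.11e-06) and over adult platelets (3.11 ± 0.27, adjusted p = 6.03e-05). Idh3a, a subunit of isocitrate dehydrogenase, rose with P7 platelets (0.72 ± 0.08, adjusted p = 7.81e-05). Aco1, the cytosolic aconitase (-0.42 ± 0.06, adjusted p = 0.000184), and Mdh1, the cytosolic malate dehydrogenase (-0.26 ± 0.04, adjusted p = 0.000575), fell.

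Of the 12 pentose phosphate genes, all tested, 4 rose and 3 fell with P7 platelets against control (median 0.09), near the 29.9% and 29.3% of all genes. With adult platelets against control 2 rose and 3 fell (14.3% and 12% of all genes), and with P7 against adult platelets 2 rose and 0 fell (19.7% and 19.8%). Pgd (0.45 ± 0.11, adjusted p = 0.00505) and G6pdx (0.30 ± 0.07, adjusted p = 0.0061), the NADPH-forming enzymes, rose, and Shpk, a kinase of sedoheptulose, fell (-1.18 ± 0.19, adjusted p = 0.000553). Prps2, which feeds ribose phosphate into nucleotides, averaged 18.2 ± 0.257 CPM with P7 platelets, 13.8 ± 0.179 CPM with adult platelets and 19.4 ± 1.07 CPM in control. It was higher with P7 than with adult platelets (0.40 ± 0.06, adjusted p = 0.000721) and fell with adult platelets relative to control (-0.49 ± 0.06, adjusted p = 0.000413).

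Of 22 regulators of the pathway, 20 were tested, and 7 rose and 6 fell with P7 platelets against control (median -0.01), close to the 29.9% higher and 29.3% lower of all genes. With adult platelets against control 3 rose and 2 fell (14.3% and 12% of all genes), and with P7 against adult platelets 4 rose and 4 fell (19.7% and 19.8%). Hif1a, the oxygen-regulated subunit of HIF-1, stood at 1394, 1577 and 1586 CPM in P7 platelet libraries, 865, 1110.1 and 858 CPM in adult platelet libraries and 568, 618 and 666 CPM in control libraries. The groups did not overlap. Hif1a rose with P7 platelets (log2 fold change 1.30 ± 0.11, adjusted p = 1.27e-05) and with adult platelets (0.61 ± 0.11, adjusted p = 0.00379) over control.

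Txnip, which removes GLUT1 from the cell surface and is itself induced by glucose, fell to 304 ± 7.89 CPM with P7 platelets, against 477 ± 19.0 CPM in control (-0.65 ± 0.06, adjusted p = 1.53e-05). With adult platelets it averaged 440.2 ± 24.7 CPM and was not called (-0.12 ± 0.06, adjusted p = 0.162). Rheb, the activator of mTORC1, rose with P7 platelets (0.61 ± 0.05, adjusted p = 1.56e-05), and Mlxip, a sensor of glucose phosphate, fell (-0.44 ± 0.04, adjusted p = 3.14e-05).

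Of 20 known targets of the hypoxia-inducible factors outside glycolysis, 18 were tested, 11 rose and 5 fell with P7 platelets against control (median 0.48), where 29.9% of all genes were called higher and 29.3% lower. With adult platelets 5 rose and 1 fell (14.3% and 12% of all genes), and with P7 against adult platelets 5 rose and 3 fell (19.7% and 19.8%). Ddit4, an inhibitor of mTORC1, rose with P7 platelets (1.47 ± 0.06, adjusted p = 4.71e-07), as did Ero1l, an oxidase of the endoplasmic reticulum (0.86 ± 0.06, adjusted p = 5.28e-06), and Hmox1, which degrades haem (1.25 ± 0.13, adjusted p = 4.52e-05). Ndrg1 fell (-0.84 ± 0.08, adjusted p = 2.78e-05). Bnip3l, needed to clear mitochondria from maturing red cells, rose with P7 platelets (0.53 ± 0.06, adjusted p = 9.72e-05) and fell with adult platelets (-0.35 ± 0.06, adjusted p = 0.00461) relative to control. The part of the erythroid share in the rise of Bnip3l was not tested.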

How the data were processed

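RNA of 9 monocyte libraries, 3 per group, was sequenced as stranded, oligo-dT selected mRNA with single-end reads, per the labels' protocols. The deposited values are raw counts of reads per gene symbol, not normalised, made by the authors. Per the submitters' processing notes, which give no order, the tools included Salmon 1.3.0, featureCounts of Subread 2.0.1, the aligner STAR 2.7.6a and fastp 0.20.1. The sources used here do not give the genome build, annotation, strand setting or handling of multiply matching reads. Of 55367 symbols, 53292 match GENCODE M21 (GRCm38), from which positions and exon lengths were taken, and 2075 do not. Promoter sequences come from RefSeq, GRCm38.p6.

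Counts were fitted with edgeR 4.0.16 (R 4.3.3) over all 9 libraries with 1 mean per group, TMM factors (0.882 to 1.10) and filterByExpr (minimum count 10), leaving 13707 genes and 6 residual degrees of freedom. The quasi-likelihood test was adjusted by Benjamini-Hochberg over all genes and called below 0.05. Intervals are 95% intervals of the fit, not adjusted for the number of genes. Alternatives were DESeq2 1.42.0 size factors and its Wald test, upper-quartile factors, other filters (none, or a mean count of 50), limma-voom (limma 3.58.1), only 2 groups, a replicate block, removal of platelet, erythroid and mitochondrial transcripts, a term for high Igkc (above 300.0 CPM of the unscaled total) and leaving out each library. Unscaled totals and the 5 low-Igkc libraries alone were added after seeing the data.

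All 10 members are named. Of each further list, the 4 genes with the smallest p in P7 platelets against control or against adult platelets are named, with Slc2a6 and Hmox1, which are among the first 4 of P7 against adult platelets alone, and Gapdh, Eno1, Tpi1, Pgam1, Gpi1, Slc2a3, Slc16a3, Hk3, Pfkm, Hif1a and Txnip whatever their values. Similar genes are the 3 with the smallest root mean square difference of centred log2 CPM, with a mean log2 CPM of at least 3. One gene that this rule names is not reported here. Members and lists were chosen with earlier results of these data known. The fit was checked on simulated data. For P7 platelets against control, 56% of 1.5-fold changes and 86% of 2-fold changes were recovered. A gene that was not called may thus still differ. Replicates of a group differed by more than counting noise, so none was taken for a library deposited a second time. No library was left out. Same-numbered P7 platelet and control libraries deviated together from their group means (correlation across genes 0.542, 0.152 and 0.300 for numbers 1, 2 and 3), so these numbers were taken to pair them. Unlike numbers came close, with 0.162 for P7 replicate 2 and control replicate 3 and 0.287 for P7 replicate 3 and control replicate 2. The pairing is thus an assumption that the labels do not give, and the tests reported above do not use it.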

Additional observations from a re-analysis of the deposited data

How the results depend on the processing

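Of 630 results of single members under alternative settings, 556 kept their direction and side of the threshold, 29 lost a call, 19 gained one and 26 turned direction. Slc2a1 in all 3 comparisons and Ldha in both comparisons with P7 platelets kept their calls under all settings run. For P7 platelets against control, 3 members were called higher with upper-quartile factors, and 2 higher and 2 lower with unscaled totals; leaving out 1 library gave 3 (without control replicate 2) to 7 higher and 0 to 1 lower. For adult platelets against control, 4 were higher and 1 lower with the 5 low-Igkc libraries, and leaving out 1 library gave 1 to 2 higher. For P7 against adult platelets, 2 were higher and 3 lower with unscaled totals, 2 lower with the low-Igkc libraries, and 0 to 1 lower when 1 library was left out. With 1 adult platelet library left in the low-Igkc fit, that library is assumed to vary like the others. All genes called with adult platelets against control numbered 3617, and 2031 to 3774 when 1 library was left out (2031 and 2207 without control replicates 2 and 3). The summed level with P7 platelets was 3956 CPM with upper-quartile factors, 4282 with platelet, erythroid and mitochondrial transcripts left out, 3678 unscaled, 4007 with low-Igkc libraries and 4067 to 4221 when 1 library was left out. In control it was 3605, 3634, 3784, 3401 and 3419 to 3551 CPM under these settings. Log2 fold changes that turned direction for P7 platelets against control were Hk2 -0.0295 and Pfkfb3 -0.00942 (upper-quartile), and unscaled Hk2 -0.204, Pfkfb3 -0.185, Aldoa -0.0240, Pgk1 -0.0143 and Pkm -0.115. For adult platelets against control they were Ldha -0.0261 (upper-quartile), -0.0604 (unscaled) and -0.00695 (Igkc term), Pfkp 0.0149 (Igkc term) and 0.0236 (low-Igkc), and Hk1 0.00319 (2 groups alone) and 0.000237 (transcripts left out). For P7 against adult platelets they were unscaled Aldoa -0.0851 and Pgk1 -0.141, and Pkm 0.0253 (low-Igkc). Leaving out 1 library gave, for adult platelets against control, -0.0817 to 0.0815 for Hk1, -0.0143 to 0.177 for Pfkl, -0.128 to 0.0156 for Pfkp and -0.0483 to 0.0559 for Ldha, and -0.0951 to 0.0517 for Pkm in P7 against adult platelets. The cause was not tested. With a replicate block, no member's call changed for P7 platelets against control, the groups that the numbers were assumed to pair. There 8565 of all genes were called, against 8111 without the block. Adult platelet replicates 1 and 2 deviated with the same numbers in P7 (correlation 0.475 and 0.215) and control (0.539 and 0.320). Adult platelet replicate 3 did not deviate with P7 replicate 3 (-0.0667) or control replicate 3 (-0.0889). Unlike numbers reached 0.417, for P7 replicate 3 and adult platelet replicate 2. Pairing by number was thus not assumed for the comparisons with adult platelets. In those comparisons the block called 3 members higher with adult platelets against control, Pgk1 (adjusted p = 0.0304) and Pkm (0.0385) besides Slc2a1, and 5 against 4 for P7 against adult platelets, with Pfkfb3 gained (0.0200). All genes called were 4228 against 3617 and 5965 against 5424 in these comparisons, with and without the block. Not every library correlated best with its own number.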
